A study of Mus musculus with 5 samples.

Results

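Granzymes, perforin and the other proteins of the cytotoxic granule were followed as a set of 10 genes: Gzma, Gzmb, Gzmk, Gzmm, Prf1, Srgn, Nkg7, Cst7, Serpinb9 and Serpinb6b. The set was given as a list of gene symbols, and all 10 were found among the 19726 symbols listed for each library. Each library holds total RNA of CD4+ T cells, either from spleen (replicates 1, 2 and 3) or from MC38 tumors (replicates 2 and 3). MC38 cells come from a mouse colon carcinoma and grow when transplanted. The animals are labelled wild-type C57/Bl6j at an age of 7 weeks in both tissues, and no treatment or modified allele is given. The labels do not say whether a library came from 1 mouse or from a pool, so spread between these 5 libraries may be technical. The p-values rest on that spread as pooled over many genes, more than on the spread of the single gene. Values are TPM, a transcript abundance corrected for length, so levels of different genes can be set side by side within a library.

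Cytotoxic lymphocytes kill by releasing granules at the contact with a target cell. Granzymes are serine proteases stored in these granules, and perforin, the product of Prf1, forms the pores through which they enter the target. Serglycin, the product of Srgn, is the proteoglycan on which granzymes and perforin are packed, and Nkg7 is a granule membrane protein. Cystatin F, the product of Cst7, inhibits the cathepsins that activate the granzyme precursors, while Serpinb9 and Serpinb6b block granzyme B and granzyme A inside the cell. These genes are best known from NK and CD8 T cells. Among CD4+ T cells, cytotoxic effector and some regulatory cells use Gzmb. Srgn, Cst7 and Serpinb9 are also known from macrophages and other myeloid cells.

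Gzmb and Srgn were far more abundant in the tumor libraries, and Serpinb9 and Serpinb6b were moderately so. Perforin transcripts were lower, and granzyme K was under 1 TPM in both tumor libraries. Granzymes A and M stayed near 1 TPM. In limma's test on log2(TPM + 1), with calls at a Benjamini-Hochberg adjusted p below 0.05, 6 of the 10 genes rose and 2 fell, and 2 were not called. Of all 12979 genes tested, 40.9% rose and 18.1% fell, so calls in either direction were common among all genes. The median log2 change was 0.62 over the members and 0.23 over all genes tested. All 10 passed the filter of a mean of at least 1 TPM, Gzmk and Gzmm by a narrow margin. Gzmk did so only through its spleen values, so its fall is counted but not read as a result. Only 4 of the 6 rises, those of Gzmb, Srgn, Serpinb9 and Serpinb6b, were also called under each of 5 other scalings of the libraries.

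**Figure D1:**
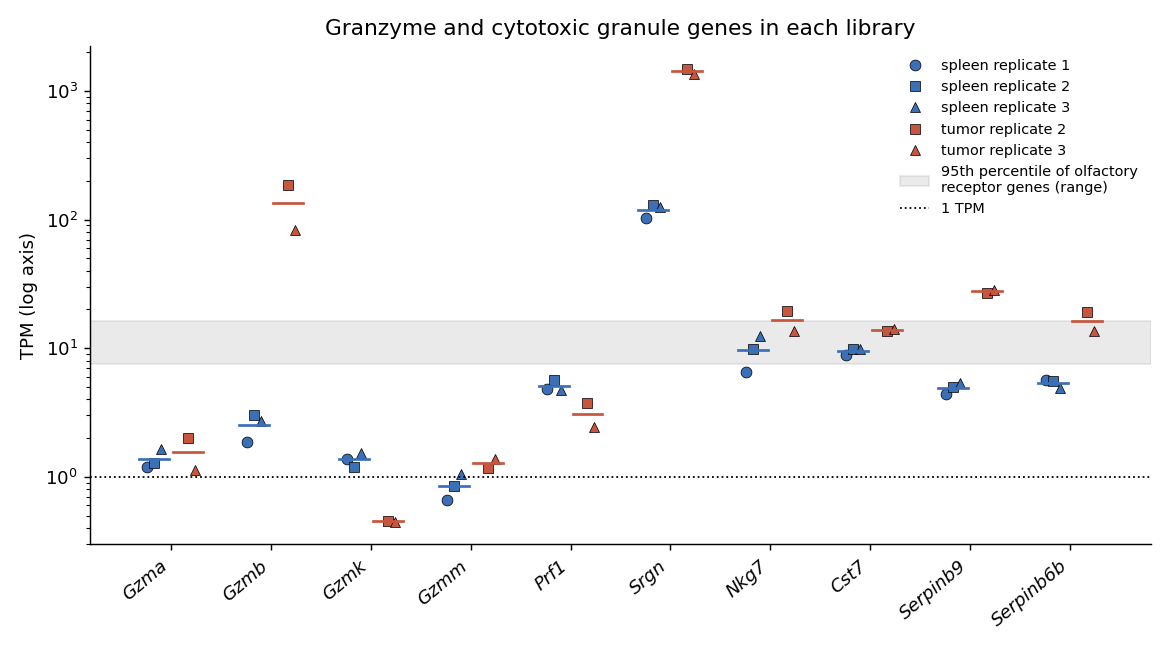
TPM of each member in each library on a log axis, with spleen in blue, tumor in red, the replicate as the symbol and the mean of each tissue as a bar. The grey band spans the 95th percentile of olfactory receptor genes in the 5 libraries, 7.59 to 16.2 TPM, and the dotted line marks 1 TPM. Gzmb and Srgn show the widest gaps between tissues, and Gzma, Gzmk, Gzmm and Prf1 lie below the band in every library.

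The levels have to be read against what else the libraries hold. Listed TPM summed to between 268987 and 359532 in spleen and between 569309 and 596116 in tumor, so the listed genes took a larger share of the tumor libraries. As a yardstick for low values, 1134 olfactory receptor genes were used, whose 95th percentile lay between 10.6 and 16.2 TPM in the spleen libraries and between 7.59 and 10.7 TPM in the tumor libraries. All 13 genes of a T cell identity list fell in tumor, beside 18.1% of all genes tested. Their summed level was between 1028 and 1364 TPM in the spleen libraries and between 259 and 333 TPM in the tumor libraries. Among them Cd4, the co-receptor that defines these cells, was at 115 ± 16.5 TPM (SD, n = 3) and 27.0 ± 0.22 TPM (SD, n = 2). The highest of the list were Cd3g in spleen (209 TPM) and Cd2 in tumor (72.5 TPM). All 16 macrophage and monocyte markers rose, beside 40.9% of all genes tested. They were led by Cybb in spleen (6.35 TPM) and Lyz2 in tumor (1233 TPM). Their sum lay between 23.2 and 25.8 TPM in spleen libraries and between 5321 and 5748 TPM in tumor libraries, and none was at 0. Fewer T cells and less RNA per T cell cannot be told apart in such bulk samples, and the part of macrophage RNA in the results on the granule genes was not tested.

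Granzyme B carried most of the granzyme signal of the tumor libraries. Gzmb (ENSMUSG00000015437, chromosome 14, 56258838 to 56262260, minus strand, GRCm38) encodes the granzyme that cleaves after aspartate and triggers apoptosis. Its level was 1.87, 3.02 and 2.70 TPM in spleen replicates 1, 2 and 3, and 187 and 82.5 TPM in tumor replicates 2 and 3. Both tumor libraries lay far above every spleen library, and they also differed from each other by 2.27-fold. The mean of 2.53 ± 0.60 TPM (SD, n = 3) in spleen and of 135 ± 74.2 TPM (SD, n = 2) in tumor gave a 53.4-fold higher level. All 3 spleen values were below the olfactory receptor percentile of their library, so the size of the fold rests on a low base. The fold was 32.6 without tumor replicate 2 and 74.1 without tumor replicate 3. On the log2(TPM + 1) scale the change was 5.17 ± 0.24 (SE, limma adjusted p = 1.3e-24). Gzmb stood at percentile 44.3 to 53.4 of all listed genes in spleen and at percentile 93.9 to 97.7 in tumor.

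The promoters of Gzmb and Serpinb9, which rose, and of Gzma and Prf1, which did not, are shown so that their sequences can be compared. Each line gives the 250 bases before the transcription start from RefSeq on GRCm38.p6, 5′ to 3′ on the gene's own strand, and capitals mark the motif matches described below. The windows are chr14:56262335-56262584 (minus strand), chr13:33004291-33004540 (plus strand), chr13:113100982-113101231 (minus strand) and chr10:61297586-61297835 (plus strand), in the order printed.
Gzmb: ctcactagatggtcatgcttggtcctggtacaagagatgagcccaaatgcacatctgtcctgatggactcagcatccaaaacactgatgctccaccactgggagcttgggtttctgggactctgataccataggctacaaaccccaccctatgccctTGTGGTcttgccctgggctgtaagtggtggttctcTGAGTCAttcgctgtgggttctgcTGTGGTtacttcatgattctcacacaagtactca
Serpinb9: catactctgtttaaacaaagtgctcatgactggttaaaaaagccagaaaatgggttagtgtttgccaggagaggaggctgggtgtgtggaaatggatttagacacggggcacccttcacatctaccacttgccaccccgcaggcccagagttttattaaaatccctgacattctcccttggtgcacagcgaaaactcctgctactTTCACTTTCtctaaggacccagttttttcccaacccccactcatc
Gzma: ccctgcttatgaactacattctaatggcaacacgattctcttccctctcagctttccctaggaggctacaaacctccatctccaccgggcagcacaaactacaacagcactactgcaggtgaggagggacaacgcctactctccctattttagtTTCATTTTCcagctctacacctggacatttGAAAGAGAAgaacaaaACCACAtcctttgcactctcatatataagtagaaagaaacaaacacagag
Prf1: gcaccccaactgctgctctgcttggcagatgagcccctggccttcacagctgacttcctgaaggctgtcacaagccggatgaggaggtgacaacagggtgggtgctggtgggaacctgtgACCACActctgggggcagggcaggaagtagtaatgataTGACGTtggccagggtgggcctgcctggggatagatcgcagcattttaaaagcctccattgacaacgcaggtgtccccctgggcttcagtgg

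A set of 6 motif strings was searched on both strands of these windows for all 10 members, and no match overlapped another. The RUNX string TGTGGT occurred in 7 of the 10 windows and in 14.05% of the 32851 RefSeq promoter windows of this length. Positions are counted from the RefSeq start, which for Gzmb lies 74 bases from the start of the principal GENCODE transcript. This distance was 0 for Serpinb9 and Gzma and 3 bases for Prf1. Gzmb holds the RUNX string at 93 and 34 bases before the RefSeq start and also has the AP-1 string TGANTCA, as TGAGTCA, at 58 bases. That string was in 1 of the 10 windows and in 6.75% of all. Serpinb9 holds an interferon response string, GAAANNGAA, on the opposite strand at 45 bases. Gzma holds the same string at 96 and 66 bases and the RUNX string at 50 bases. The interferon response string was in 3 of the 10 windows and in 7.13% of all. Prf1 has the CRE string TGACGT at 92 bases, which was in 2 windows and in 6.47% of all, and the RUNX string at 130 bases. The T-box string TCACACC was in 2 windows, those of Gzmk and Nkg7, and in 3.33% of all. The NF-kB string GGGNNTTCC was in none of the 10 and in 4.98% of all. These matches describe letters in a window and not factor binding.

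The other granzymes among the members were scarce in both tissues. Gzma (ENSMUSG00000023132, chromosome 13, 113093825 to 113100981), the tryptase granzyme of NK and CD8 T cells, was at 1.19, 1.28 and 1.63 TPM in spleen and 2.01 and 1.12 TPM in tumor. The tissues overlapped, and the change was not called (log2 change 0.10 ± 0.22 SE, limma adjusted p = 0.72). Its sign turned negative under 4 of the 5 other scalings and without tumor replicate 2. Gzmm (chromosome 10, 79689020 to 79695261), a granzyme best known from NK cells, was at 0.66 and 0.84 TPM in spleen replicates 1 and 2, hence not detected there at a limit of 1 TPM. It was at 1.04 TPM in spleen replicate 3 and at 1.18 and 1.37 TPM in tumor, without a call (log2 change 0.30 ± 0.22, limma adjusted p = 0.24). The sign of this value turned negative under 3 of the other scalings.

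Gzmk (chromosome 13, 113171608 to 113225908) lies 70626 bp from Gzma and marks memory-type T cells. Its level was 1.38, 1.20 and 1.52 TPM in spleen, and 0.45 TPM in each tumor library, where it counts as not detected. The groups did not overlap and the fall was called (log2 change -0.71 ± 0.22, limma adjusted p = 0.0062). Gzmk passed the filter only through its spleen values, so the call is not read as a result. Scaled on T cell identity genes the value was 0.23 and not called. Without any 1 of the 3 spleen libraries Gzmk fell below the filter and was not tested. Gzma, Gzmk and Gzmm were below the olfactory receptor percentile in all 5 libraries, so their differences lie within the level found for genes with no known role in T cells.

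The 6 granzyme genes outside the member list lie with Gzmb in a cluster on chromosome 14. Of these 6, Gzmc and Gzmd passed the filter, and they did so only through their tumor values, so neither call is read as a result. With no filter 5 of the 6 were called higher, beside 26.1% of all 19726 genes. Gzmc, separated from Gzmb by 24181 bp, was at 0.72, 0.52 and 0.53 TPM in spleen and at 8.74 and 13.8 TPM in tumor (log2 change 2.92 ± 0.22, limma adjusted p = 2e-16). Gzmc was also called under all 5 other scalings, which use the same filter and so add no support. Its higher tumor library was replicate 3, while that of Gzmb was replicate 2. Gzmd was at 0.47 ± 0.37 TPM (SD, n = 3) and 1.96 ± 1.07 TPM (SD, n = 2), and its call was lost under 3 of the 5 other scalings. Gzme, Gzmf and Gzmg were under 1 TPM in each spleen library and at 0.67 to 2.34 TPM in tumor. Gzmn was under 1 TPM in all libraries. Values of these 6 genes are uncertain, since reads could be split between them. Of the 31-base words in their GENCODE transcripts, 14.8% for Gzmc, 38.2% for Gzmd, 42.1% for Gzme, 22.8% for Gzmf, 33.8% for Gzmg and 13.6% for Gzmn also occur in transcripts of another gene. For Gzmb this share was 1.35%, and for Gzma, Gzmk and Gzmm it was 0. Over all 10 granzyme genes the sum was 7.64 to 9.52 TPM in spleen, with 23.0% to 39.6% from Gzmb. It was 204 and 107 TPM in tumor replicates 2 and 3, with 91.8% and 76.8% from Gzmb.

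**Figure D2:**
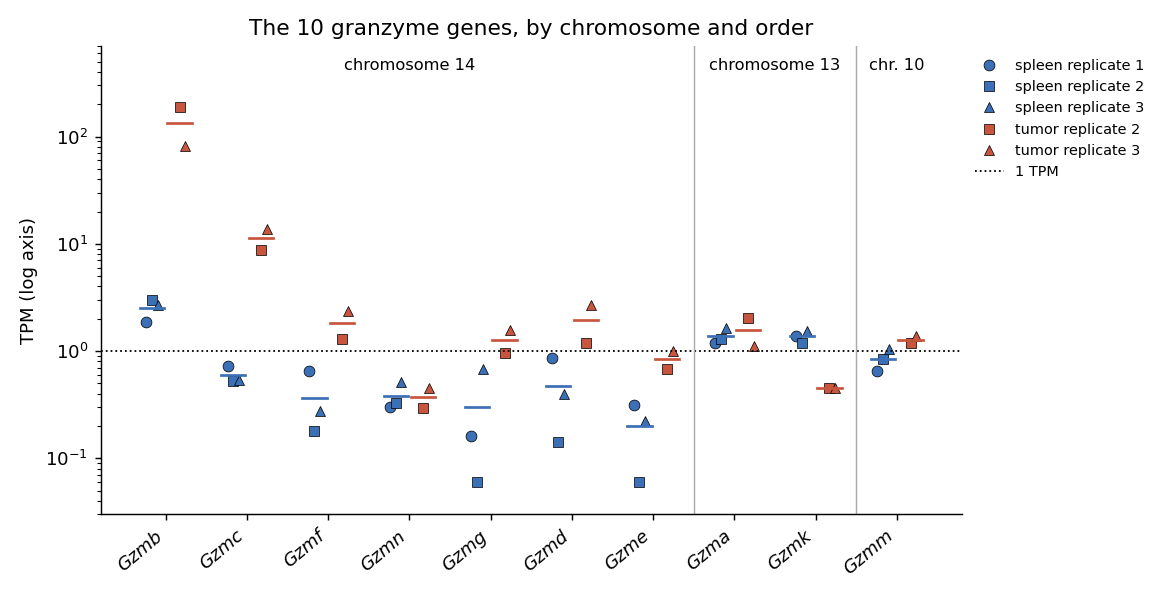
TPM of the 10 granzyme genes in each library on a log axis, grouped by chromosome, with the chromosome 14 genes in order from Gzmb at the highest coordinate to Gzme at the lowest. Blue is spleen, red is tumor, symbols are replicates, bars are tissue means and the dotted line is 1 TPM. Gzmb stands highest, at 82.5 and 187 TPM in tumor, followed by Gzmc at 8.74 and 13.8 TPM.

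The pore-forming partner did not move with Gzmb. Prf1 (ENSMUSG00000037202, chromosome 10, 61297833 to 61304680) was at 4.80, 5.67 and 4.70 TPM in spleen and at 3.73 and 2.46 TPM in tumor. Both tumor libraries lay below all spleen libraries, and the fall was called (log2 change -0.58 ± 0.21, limma adjusted p = 0.017). Leaving out tumor replicate 3 ended the call (adjusted p = 0.29, limma), as did using no filter on low values (adjusted p = 0.062, limma). Scaled on T cell identity genes the change was positive and called, at 1.11. In each library Prf1 was below the olfactory receptor percentile. The ratio of Gzmb to Prf1 TPM was 0.39 to 0.57 in spleen and 50.3 and 33.6 in tumor replicates 2 and 3, with Prf1 in all libraries and Gzmb in spleen below that percentile.

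Serglycin was the most abundant member in every library. Srgn (ENSMUSG00000020077, chromosome 10, 62493833 to 62527451) was at 103, 130 and 125 TPM in spleen and at 1493 and 1365 TPM in tumor. The mean of 119 ± 14.6 TPM (SD, n = 3) in spleen and of 1429 ± 90.7 TPM (SD, n = 2) in tumor gave a 12.0-fold higher level (log2 change 3.58 ± 0.20, limma adjusted p = 4.8e-21). The change was between 2.57 and 5.66 under the 5 other scalings and was called in each. Its tumor libraries differed by only 1.09-fold, those of Gzmb by 2.27-fold. Srgn exceeded Gzmb 43.0 to 55.1 times in spleen, and 7.97 and 16.5 times in tumor replicates 2 and 3.

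Nkg7 (chromosome 7, 43437073 to 43438249) was at 6.57, 9.91 and 12.4 TPM in spleen and at 19.6 and 13.6 TPM in tumor. The highest spleen library lay just below the lower tumor library, and the rise was called (log2 change 0.74 ± 0.22, limma adjusted p = 0.004). It was lost under 4 of the other scalings, 3 of which turned the sign negative, and also without tumor replicate 2 (adjusted p = 0.17, limma) and with no filter on low values (adjusted p = 0.052, limma). On the T cell identity scale the change was 2.68.

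All 3 inhibitor genes of the set were called higher in the deposited TPM, beside 40.9% of all genes tested. Serpinb9 and Serpinb6b were called higher under every scaling, and Cst7 was not. Serpinb9 (ENSMUSG00000045827, chromosome 13, 33003250 to 33017957), the inhibitor of granzyme B, was at 4.42, 4.98 and 5.33 TPM in spleen and at 27.0 and 28.4 TPM in tumor. The libraries of each tissue were close together and the tissues were well apart, with a 5.64-fold higher level in tumor (log2 change 2.28 ± 0.21, limma adjusted p = 9.3e-14). Serpinb6b (chromosome 13, 32965209 to 32979067), 24182 bp from Serpinb9 and an inhibitor of mouse granzyme A, was at 5.69, 5.54 and 4.88 TPM in spleen and at 19.3 and 13.5 TPM in tumor. Its level was 3.05-fold higher (log2 change 1.43 ± 0.21, limma adjusted p = 7.1e-08), and under the other scalings the change was 0.52 to 3.31. For Serpinb9 and Serpinb6b alike, all spleen values were below the olfactory receptor percentile of their library and both tumor values were above it. The size of these folds therefore rests on a low base. Of the 31-base words, 4.91% of Serpinb9 and 6.83% of Serpinb6b were shared with another gene.

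Cst7 (chromosome 2, 150570415 to 150578944) was at 8.87, 9.85 and 9.89 TPM in spleen and at 13.713 and 13.999 TPM in tumor. This small difference did not overlap between tissues and was called (log2 change 0.50 ± 0.20, limma adjusted p = 0.034). The call was lost by median ratios, with equal totals and by upper quartiles, the last 2 with a negative sign (-0.36 and -0.26). It was also lost without spleen replicate 1 or 3 or either tumor replicate (adjusted p 0.081 to 0.16, limma). When totals omitted the top 20 genes, Cst7 was called in the opposite direction, at -0.43, and on the T cell identity scale it was 2.43. Among 11 other intracellular serpins, 2 of the 3 tested genes rose, beside 40.9% of all genes tested. Of the 11, 7 were under 1 TPM in every library. When no filter on low values was used, 1 of the 11 rose, beside 26.1% of all 19726 genes. The list is therefore not read as rising along with the inhibitors. Only 1 of the 3 tested genes, Serpinb2, rose under the 4 scalings other than that on T cell identity genes. Serpinb2, an inhibitor of plasminogen activators, went from 0.18 ± 0.06 to 6.91 ± 0.82 TPM (SD, n = 3 and 2) and was called under every scaling. It passed the filter only through its tumor values, so the call is not read as a result.

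**Figure D3:**
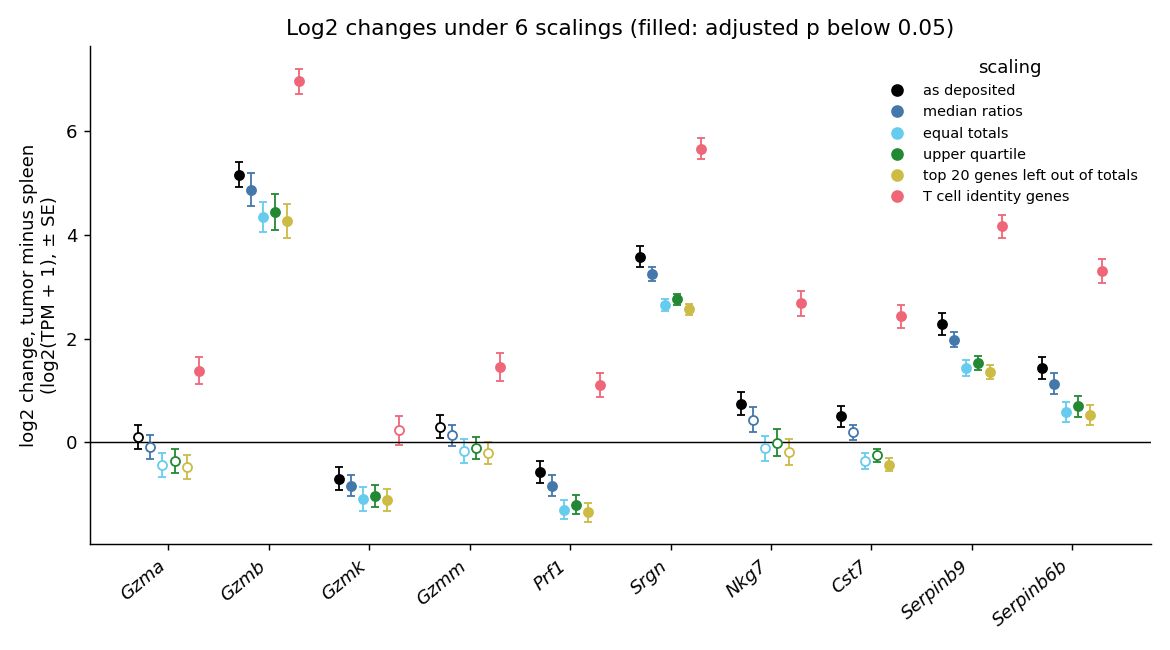
Log2 change of each member, tumor minus spleen on the log2(TPM + 1) scale with its SE, under 6 scalings of the libraries, filled where limma's adjusted p is below 0.05. Gzmb, Srgn, Serpinb9 and Serpinb6b are filled above 0 under all 6. Gzmk and Prf1 are filled below 0 under all but the scaling on T cell identity genes, where Prf1 is above 0.

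The scalings move all genes together, so a member's change has to be read beside the median of all genes. That median was 0.23 as deposited, -0.05 by median ratios, -0.54 with equal totals, -0.45 by upper quartiles, -0.60 when totals omitted the top 20 genes, and 2.03 on the T cell identity scale. With this last scaling 9 of the 10 members rose and none fell, beside 94.3% of all genes rising and 0.963% falling. The members therefore did not stand apart from other genes by their count on that scale. Gzmb at 6.96 and Srgn at 5.66 lay well above the median there. The pseudocount of 1 compresses changes of genes near 1 TPM: Gzma was at 1.38 and Gzmm at 1.46 on that scale, and at 2.24 and 2.70 as log2 differences taken relative to T cell identity genes with no pseudocount.

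Set against the T cell transcripts of the same library, the geometric mean of the 13 T cell identity genes was 69.3 to 92.3 TPM in spleen and 20.6 and 16.5 TPM in tumor replicates 2 and 3. Gzmb was at 2.69% to 3.53% of it in spleen and at 912% and 499% in tumor. Prf1 was at 6.14% to 6.93% in spleen and at 18.1% and 14.9% in tumor, a 2.57-fold higher share where its TPM was lower. Serpinb9 went from 6.25% ± 0.80 to 151% ± 28.8 (SD, n = 3 and 2). Gzmk was at 1.30% to 2.00% in spleen and 2.20% and 2.71% in tumor. On this scale each of the 10 genes was higher in both tumor libraries than in all spleen libraries. In the fit scaled on the T cell identity genes 94.3% of all genes were called higher. The separation of all 10 is therefore not read as a result on the members. The T cell identity genes are a reference for RNA of T cells only as far as other cells do not contribute the granule genes, which was not tested.

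**Figure D4:**
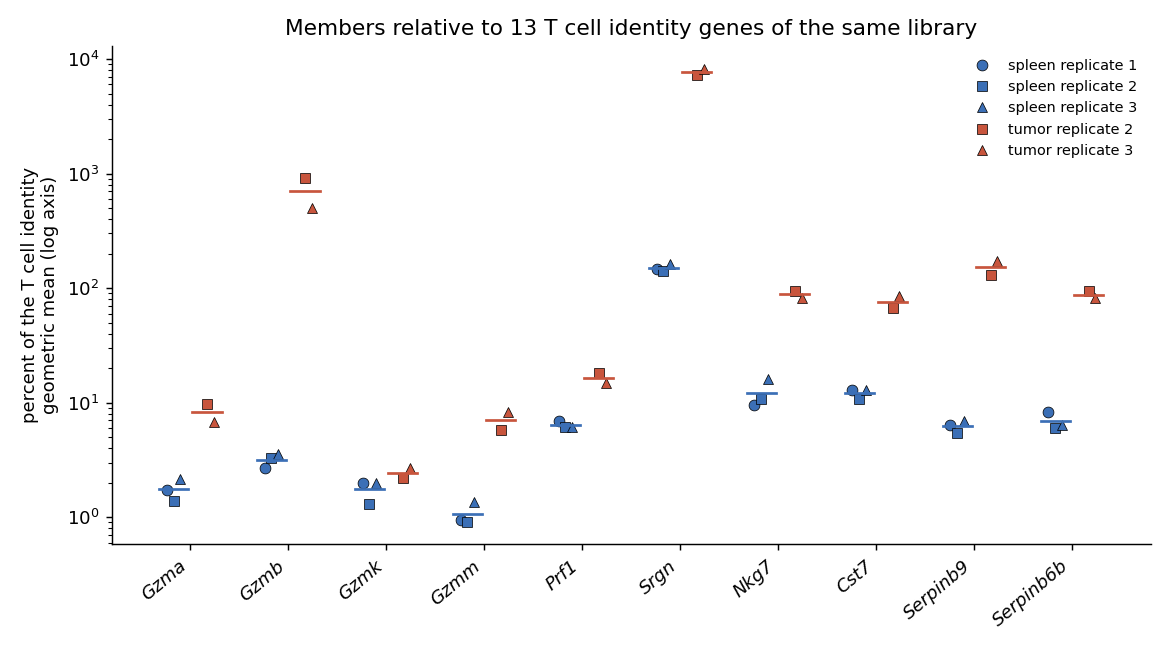
Each member as a percent of the geometric mean of 13 T cell identity genes in the same library, on a log axis, with spleen in blue, tumor in red, replicates as symbols and tissue means as bars. All 10 members sit higher in tumor, where 94.3% of all genes were called higher in the fit scaled on these genes. The gap is widest for Gzmb and Srgn and smallest for Gzmk, at 2.20% and 2.71% against at most 2.00% in spleen.

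Genes around the granule pathway moved in both directions. Of 12 genes listed for the processing or sorting of granule proteases, 10 rose and 1 fell, beside 40.9% and 18.1% of all genes. The median log2 change was 3.75, beside 0.23 over all genes. The list also holds the lysosomal membrane genes Lamp1, Lamp2 and Cd63, so it is not specific to granules. Ctsc, the cathepsin that activates granzyme precursors, was at 18.1, 22.3 and 19.2 TPM in spleen and 806 and 1033 TPM in tumor (log2 change 5.46 ± 0.21, limma adjusted p = 7.6e-28). The lysosomal cathepsin gene Ctsz had the smallest p of the rises, at 5.06 ± 0.74 and 362 ± 46.2 TPM (SD, n = 3 and 2). These cathepsins are lysosomal genes that macrophages express as well. Ctsw, a cathepsin of cytotoxic lymphocytes, was lower in tumor, with 2.61 ± 0.37 TPM against 13.3 ± 3.17 TPM in spleen (log2 change -1.97 ± 0.21, limma adjusted p = 2.5e-11), a call that was lost on the T cell identity scale at -0.21.

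Of 13 listed genes of granule docking and release, 8 rose and 2 fell (median 1.09), beside 40.9% and 18.1% of all genes. With equal totals 5 rose and 5 fell, beside 21.0% of all genes rising and 51.3% falling. Rab7, a GTPase of late endosomes and lysosomes, went from 18.8 ± 2.44 to 122 ± 5.32 TPM (SD, n = 3 and 2). Sytl2, a synaptotagmin-like effector of Rab27, fell from 20.4 ± 2.28 to 12.2 ± 1.31 TPM, without a call when tumor replicate 3 was left out, and rose when scaled on T cell identity genes. No gene of this list fell without tumor replicate 3 or on the T cell identity scale.

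Of 5 listed death ligands and lytic effectors, 2 rose and 3 fell (median -0.83), beside 40.9% and 18.1% of all genes. The median was 0.83 on the T cell identity scale, beside 2.03 over all genes, of which 94.3% were called higher there. Tnf, the tumor necrosis factor gene that macrophages also express, went from 5.50 ± 0.76 to 152 ± 4.32 TPM. The lymphotoxin gene Lta fell from 3.86 ± 0.64 to 0.80 ± 0.08 TPM, with a log2 change of -0.11 and no call on the T cell identity scale. Fasl, the ligand of the death receptor Fas, was at 5.31, 5.40 and 4.95 TPM in spleen and 3.08 and 2.02 TPM in tumor (log2 change -0.83 ± 0.21, limma adjusted p = 0.00075). Its fall was not called without tumor replicate 3, and scaled on T cell identity genes it was called in the opposite direction at 0.83. Without tumor replicate 3 only 1 gene of the list fell.

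Of 10 regulators of the cytotoxic programme, 6 rose and 2 fell (median 1.23), beside 40.9% and 18.1% of all genes. With equal totals the counts were 5 and 4, beside 21.0% of all genes rising and 51.3% falling. All 10 were called higher on the T cell identity scale, beside 94.3% of all genes. Zeb2, a transcription factor gene of terminal effector T cells and also of macrophages, went from 9.88 ± 2.35 to 420 ± 29.1 TPM (SD, n = 3 and 2). Eomes, which encodes a T-box factor of cytotoxic lymphocytes, fell, with 2.59 ± 0.30 TPM in spleen against 1.15 ± 0.27 TPM in tumor (limma adjusted p = 0.0032), was not called without tumor replicate 2 and was called in the opposite direction on the T cell identity scale. Of the regulators, none fell without tumor replicate 2, and 1 fell when any of spleen replicates 2 and 3 or tumor replicate 3 was omitted.

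**Figure D5:**
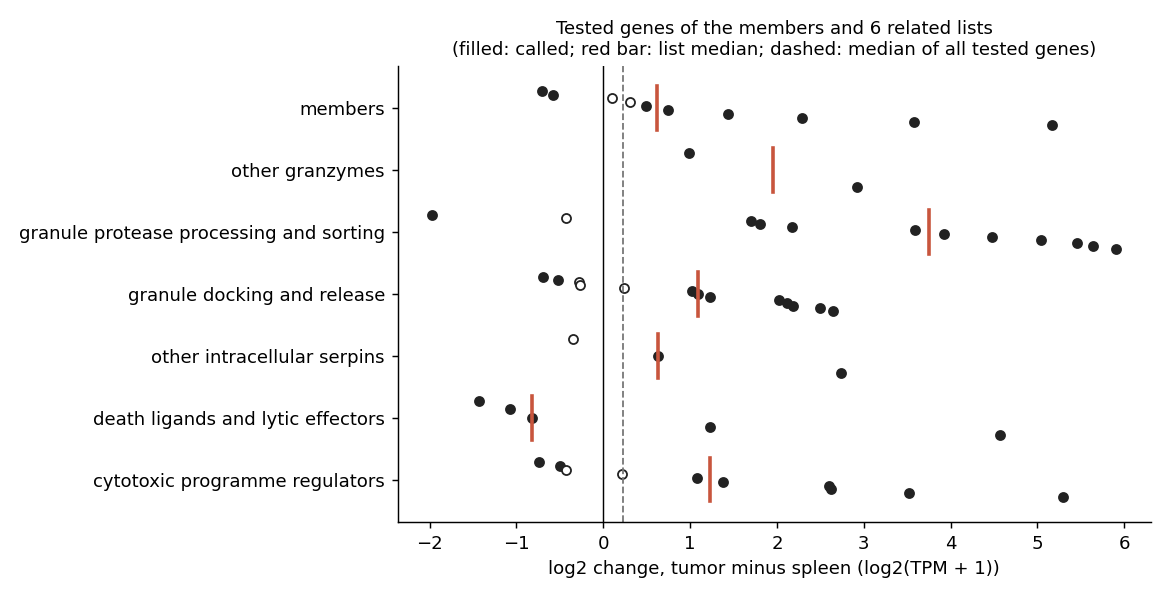
Log2 changes, tumor minus spleen on the log2(TPM + 1) scale, of the tested genes among the members and 6 related lists, filled where called. The red bar is the list median and the dashed line the median of all tested genes, 0.23. Genes of protease processing and sorting lie furthest to the right, with a median of 3.75, and death ligands and lytic effectors have the lowest median, -0.83.

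Markers of other cell types were summed in the same libraries. Their called counts stand beside 40.9% of all genes tested rising and 18.1% falling, and are not read as results on a cell type. The CD8 T cell genes Cd8a and Cd8b1 summed to between 6.44 and 7.34 TPM in spleen and between 4.92 and 5.48 TPM in tumor. Cd8a was not called (3.20 ± 0.67 TPM in spleen and 3.19 ± 0.08 TPM in tumor, SD) and Cd8b1 fell (log2 change -0.66, limma adjusted p = 0.0067). The Cd8b1 fall was not called without tumor replicate 3. On the T cell identity scale both were called higher, at 1.63 for Cd8a and 0.90 for Cd8b1, beside 94.3% of all genes. Cd8a was called lower under 3 of the other scalings. Of 10 NK cell markers, 8 were tested, of which 2 rose and 2 fell, and none was at 0. The rises were those of Klrk1 and of Tyrobp, a gene that myeloid cells express too, and they took the list's sum from 38.8 to 55.9 TPM in spleen to 876 and 957 TPM in tumor. Tyrobp was at 787 TPM and Klrk1 at 108 TPM in tumor. The other 8 NK markers summed to 27.0 to 40.4 TPM in spleen and to 24.1 and 17.3 TPM in tumor replicates 2 and 3. Ncr1, which defines NK cells, was under 1 TPM in all 5 libraries. The highest NK marker in spleen was Klrd1, at 13.2 TPM, and it fell. Of the 8 neutrophil markers, 5 were tested, of which 2 rose, 1 fell and 2 were not called. The sum was at most 25.6 TPM in spleen and 69.5 and 75.7 TPM in tumor, led by Cxcr2 (15.5 TPM) and Csf3r (55.5 TPM). Csf3r alone made up 53.1 and 57.8 TPM of the sums in tumor replicates 2 and 3, and Cxcr2 was the marker that fell. Of 8 dendritic cell markers, 6 were tested, of which 2 rose and 4 were not called. The sum went from at most 23.0 TPM in spleen to 108 and 156 TPM in tumor, led by Ccr9 (6.74 TPM) and Itgax (112 TPM). Itgax alone made up 87.8 and 136 TPM of the sums in tumor replicates 2 and 3. B cell markers summed to at most 21.0 TPM in any library, with Ebf1 highest in both tissues at 8.73 and 7.56 TPM. Mast cell and basophil markers, led by Ms4a2, summed to 2.76 and 3.00 TPM in tumor, and epithelial markers, led by Epcam, to 1.82 and 1.85 TPM. The part of CD8 T cell, NK cell, neutrophil and dendritic cell RNA in the results on the granule genes was not tested.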

How the data were processed

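RNA of CD4+ T cells was sequenced as stranded, paired-end libraries depleted of ribosomal RNA, per the labels' protocols. Kallisto, DESeq2 and the build mm10 are named in the submitters' processing notes, with no version or role. The deposited files hold 1 value per gene symbol, taken as TPM from the authors because the values are not whole and from the tool named. TPM keeps no depth, so no counting interval is given. Coordinates are from GENCODE vM21 (GRCm38, the same build).

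Log2(TPM + 1) was tested with limma 3.58.1 (R 4.3.3) over 12979 genes whose mean reached 1 TPM. The model had tissue alone, a variance trend and Benjamini-Hochberg adjustment over all genes, with 3 residual degrees of freedom. To these limma added 44.1 prior degrees of freedom drawn from all genes, so a gene's own spread weighs little in its p-value. For Gzmb the adjusted p (limma) was 9.97e-07 with no filter and 1.5e-125 at a mean of at least 5 TPM, at the same log2 change of 5.17. The model was tested on simulated data. Members, lists and tests were chosen with earlier results of these data known. Named beside the members were the called gene of smallest p per direction in each pathway list, Ctsc, Fasl, the other granzymes, Cd8a, Cd8b1 and the highest marker per cell type and tissue. Cd4, Ncr1 and Klrk1 were named after their values were seen. Vamp7 and Gnly are not analysed here. Alternatives were 5 scalings, 2 pseudocounts, 2 filters, no variance trend, a replicate block and omission of each library.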

Additional observations from a re-analysis of the deposited data

How the results depend on the processing

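Gzmb, Srgn, Serpinb9 and Serpinb6b were called higher in tumor under all 16 alternatives. At a mean of at least 5 TPM, Gzmb and Serpinb9 passed only through tumor, as their spleen means were 2.53 and 4.91 TPM. That alternative adds no support to these rises. For all genes, rises numbered 2724 with equal totals, 3078 by upper quartiles, 2648 when totals omitted the top 20 genes and 12233 on the T cell identity scale. Falls numbered 3920 by median ratios, then 6662, 6366, 7321 and 125 under those scalings, and 1456 at a mean of at least 5 TPM, with 1225 to 2609 on leaving out a library. Called falls of members numbered 0 on T cell identity genes and at a mean of at least 5 TPM, 1 with no filter, and 1 to 2 on leaving out a library. Falls in the pathway lists numbered 13 by median ratios, 15 with equal totals, 14 by upper quartiles, 15 without the top 20 genes, 0 on T cell identity genes and 3 at a mean of at least 5 TPM, with 4 to 10 on leaving out a library.

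Log2 changes that turned sign were, for Gzma, -0.091 by median ratios, -0.44 with equal totals, -0.37 by upper quartiles and -0.48 without the top 20 genes, with -0.15 to 0.35 on leaving out a library. For Gzmm they were -0.17, -0.11 and -0.20 under the last 3 of these scalings, for Nkg7 -0.12, -0.012 and -0.19, and for Cst7 -0.36, -0.26 and -0.43. Scaled on T cell identity genes Gzmk was at 0.23 and Prf1 at 1.11. The scalings shift all genes by construction. The cause of the other changes was not tested. With the replicate block, in which spleen replicate 1 has no partner and adds nothing to the change, Nkg7 was at 0.52 and Cst7 at 0.45, neither called, and 4 members rose and 2 fell. The block changed no other member's call. The labels do not say that a number marks one mouse, and the deviations of replicates 2 and 3 correlated across genes at r = 0.17 between tissues. Where 1 tumor library was left alone, its spread was taken from the spleen group. Gzmk was not tested without a spleen library, nor Gzmm without a tumor library, and at a mean of at least 5 TPM only 6 members were tested. Depth is not given by TPM, which limits what can be said of genes near 1 TPM.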
